A study of Mus musculus with 28 samples.

Results

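The SLAM family and costimulatory molecules described here are 10 genes of the deposited expression table, chosen by symbol from the 40021 genes listed. They comprise the signalling lymphocytic activation molecule (SLAM) family members Slamf1, Slamf7, Slamf8, Slamf9 and Cd48, the B7 ligands Cd80, Cd86, Cd274 and Pdcd1lg2, and the ICOS ligand gene Icosl. At 4 h after lipopolysaccharide (LPS), Slamf1, Slamf7, Cd80, Cd86, Cd274 and Icosl were up-regulated in retinal microglia, by 1.61 to 3.78 on the log2 scale, and Cd48 was down-regulated. The Slamf7 rise, the smallest of these, missed the thresholds in 16 of 28 fits that left out 1 retina, and was 0.02 within experiment 2. At 18 h only Slamf7 and Cd274 passed the thresholds against naïve retinas, and at 2 weeks no member did. Slamf1 at 4 h averaged 58.9 RPKM in the retinas of experiment 1 and 3.41 RPKM in those of experiment 2.

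Microglia were sorted from single retinas of heterozygous male mice of the Cx3cr1CreER:R26-tdTomato line on a C57BL/6 background, and mRNA was amplified and sequenced. Every group, controls included, carried the transgenes and had received tamoxifen at 4 to 5 weeks of age, which switches on the red reporter in cells with an active fractalkine receptor (Cx3cr1) promoter. Endotoxin-induced uveitis (EIU) was induced 4 weeks later by injecting 10 ng LPS into the vitreous, after which 6 retinas were collected at 4 h, a further 5 at 18 h, and the last 7 at 2 weeks. The controls were 10 naïve retinas, and no vehicle-injected group was analysed here. In the order naïve, 4 h, 18 h, 2 weeks, experiment 1 contributed 6, 3, 4 and 4 retinas, and experiment 2 contributed 4, 3, 1 and 3. The labels give the eye side but not which retinas came from the same mouse, so p-values measure the spread between retinas. The reporter marks cells by promoter activity, and in some cells it switches on without tamoxifen. Other cells with that promoter active could therefore be sorted too. Tamoxifen was applied to the eye, on a schedule that the study chose for specific labelling of microglia, and the sort kept live (DRAQ7-) cells with high tdTomato.

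SLAM receptors are small immunoglobulin-type proteins on leucocytes. Most bind a copy of themselves on the next cell, and their tails recruit SAP-type adaptors that either promote or dampen activation, while CD48 has no tail and serves as ligand of CD244 and CD2. The B7 molecules CD80 and CD86 deliver the second signal that a T cell needs beside antigen, through CD28, or a brake through CTLA-4. PD-L1 (encoded by Cd274) and PD-L2 (Pdcd1lg2) engage the inhibitory receptor PD-1, and ICOS ligand engages ICOS. Resting microglia are held to be poor presenters of antigen, and such ligands are among the genes that macrophages induce through toll-like receptors and interferons.

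The values are RPKM, reads corrected for transcript length and library size, from 7510000 to 19700000 alignments per retina. Between 6552 and 11825 genes per retina were at 1 RPKM or more. In 7 retinas, all of experiment 1 (naïve replicates 3 to 6, 4 h replicate 2, 18 h replicate 4 and 2-week replicate 1), between 19 and 102 of 2657 widely expressed genes were listed at 0, so that a 0 in these retinas can be a failed estimate. Results below are therefore also given without these 7 retinas where that ended a call, and for some of the estimates that it moved. The microglial markers were present in every retina, with a summed level of 9 genes of 6629 to 13214 RPKM in naïve retinas. The sum was 2149 to 6689 RPKM at 4 h, when 4 of the 9 were down-regulated, then 3909 to 6178 at 18 h, when 6 were, and 7779 to 12791 in the 2-week group. In such sorted bulk samples fewer cells of a type and less RNA per cell cannot be told apart.

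On GRCm38, the SLAM members lie in a pair of stretches of chromosome 1. Slamf7 (171632403 to 171653035, minus strand), Cd48 (171682009 to 171705258) and Slamf1 (171767127 to 171801184) are neighbours within 168.8 kb, with no other protein-coding gene between Slamf7 and Slamf1 than Cd48. Slamf9 (172475358 to 172478575) and Slamf8 (172581758 to 172590568, minus strand) lie within 115.2 kb. Cd274 (29367455 to 29388095) and Pdcd1lg2 (29410919 to 29471161) are neighbours on chromosome 19, 22.82 kb apart. Cd80 (38455561 to 38496335) and Cd86 (36603869 to 36666081, minus strand) are on chromosome 16 and Icosl (78069302 to 78083913) on chromosome 10. The library kit does not keep the strand of the RNA, so reads from the antisense genes that overlap Slamf7 (Gm37787, at most 1.82 RPKM) and Pdcd1lg2 (A930007I19Rik, at most 3.27 RPKM), and from the one that overlaps Cd274 (AC119228.1), cannot be told apart from reads of these members.

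Promoter sequence was available for 9 members in the RefSeq table of GRCm38.p6. The 250 bases before each RefSeq start were searched on both strands for 4 motifs of factors that act downstream of LPS and cytokines, namely the NF-kappa B site, the interferon regulatory factor (IRF) motif GAAANNGAA, the interferon-gamma activated sequence (GAS) TTCNNNGAA and the AP-1 motif TGANTCA. The same search matched 7.25%, 7.13%, 7.02% and 6.75%, respectively, of 32851 promoters. The 120 bases before the start are printed for the 4 genes that rose at 4 h with a match in them, for Slamf8, and for the neighbours Slamf1 and Cd48, which moved in opposite directions at 4 h and held no match. For Icosl only the 54 of these bases that precede the GENCODE gene are printed. Letters in capitals mark the match, and each run is given 5′ to 3′ on the gene's strand.
Cd274 chr19:29367318-29367437, plus strand: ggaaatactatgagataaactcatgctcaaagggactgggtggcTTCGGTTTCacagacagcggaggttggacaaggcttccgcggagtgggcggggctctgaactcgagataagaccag
Slamf8 chr1:172590569-172590688, minus strand: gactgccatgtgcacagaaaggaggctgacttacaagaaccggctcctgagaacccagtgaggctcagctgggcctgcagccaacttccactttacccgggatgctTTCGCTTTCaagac
Icosl chr10:78069248-78069301, plus strand: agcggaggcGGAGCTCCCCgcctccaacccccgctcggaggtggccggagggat
Slamf7 chr1:171649000-171649119, minus strand: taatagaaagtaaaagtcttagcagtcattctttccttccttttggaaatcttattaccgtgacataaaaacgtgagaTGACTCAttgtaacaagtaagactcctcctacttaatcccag
Cd80 chr16:38458813-38458932, plus strand: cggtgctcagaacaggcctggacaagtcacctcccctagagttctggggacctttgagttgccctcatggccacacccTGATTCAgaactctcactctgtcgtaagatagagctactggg
Slamf1 chr1:171767012-171767131, plus strand: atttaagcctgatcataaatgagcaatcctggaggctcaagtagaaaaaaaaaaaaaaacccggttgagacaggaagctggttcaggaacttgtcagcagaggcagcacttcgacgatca
Cd48 chr1:171681872-171681991, plus strand: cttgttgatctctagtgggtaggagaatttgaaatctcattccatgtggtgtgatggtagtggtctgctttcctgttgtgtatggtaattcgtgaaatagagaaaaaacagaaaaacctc
Cd274 and Slamf8 each held 1 IRF match, at positions -76 to -68 and -14 to -6 from the start. Slamf7 and Cd80 each held 1 AP-1 match, both at -42 to -36, and Icosl held 1 NF-kappa B match at -111 to -102. Pdcd1lg2, the least expressed member, held an NF-kappa B match farther upstream, at -244 to -235. Slamf1, Slamf9 and Cd48 held none of the 4 motifs in these windows, and no member held the GAS motif. These matches are letters in a window and were not tested for binding. The RefSeq starts of Slamf1, Slamf7, Slamf9, Cd80 and Icosl used here lie inside the GENCODE genes, those of Slamf1 and Slamf9 by a few bases.

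The members differed widely in level in naïve retinas. Cd48 was highest, at 383 ± 112 RPKM (SD, n = 10), followed by Slamf9 at 125 ± 56.0 and Cd86 at 77.9 ± 15.3. The lowest Cd48 value (199) was above the highest Slamf9 value (180), whereas Slamf9 (47.3 to 180) and Cd86 (53.6 to 109) overlapped. Cd80 followed at 7.90 ± 4.97 RPKM, with its highest value of 15.2 below the lowest of Cd86. Icosl (5.91 ± 5.88), Slamf8 (3.11 ± 3.29), Cd274 (2.28 ± 1.88) and Slamf7 (1.59 ± 2.41) overlapped with their neighbours in this order. Slamf1 averaged 0.523 ± 0.552 RPKM and Pdcd1lg2 0.0981 ± 0.290, the latter listed at 0 in 8 of 10 naïve retinas. For scale, 1 alignment to Slamf1 corresponded to 0.0189 RPKM in the deepest retina and 0.0495 in the shallowest.

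**Figure D1:**
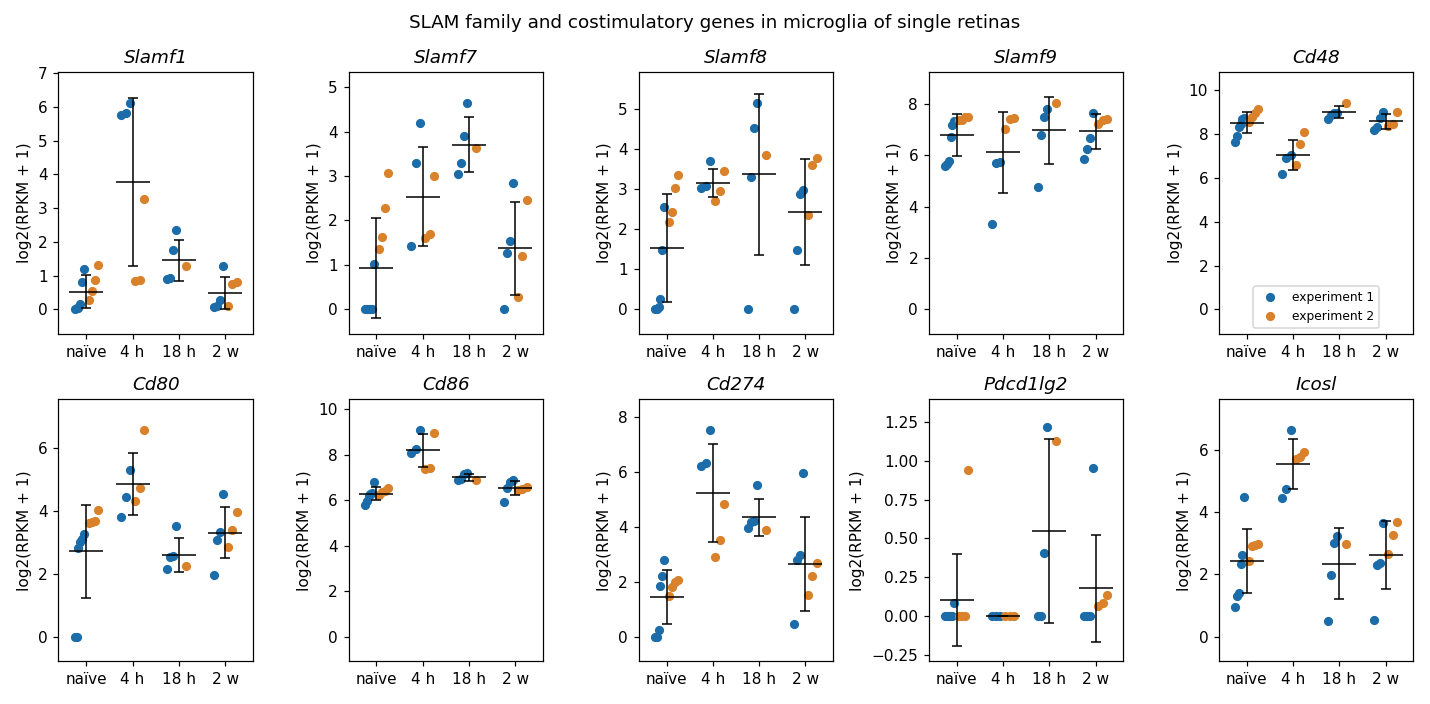
Level of each of the 10 members on the log2(RPKM + 1) scale in single retinas of the naïve, 4 h, 18 h and 2-week (2 w) groups. Points are retinas, blue for experiment 1 and orange for experiment 2, and black bars are the group mean ± SD. Cd86 and Cd274 at 4 h lie above all naïve retinas, and the 4 h retinas of Slamf1 form separate levels by experiment.

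Differences between groups were tested on log2(RPKM + 1) in 1 limma fit of all 28 retinas, over the 13164 genes that reached 1 RPKM in 5 or more retinas, with Benjamini-Hochberg adjustment. A gene counted as up- or down-regulated where it changed 2-fold or more with an adjusted p no greater than 0.05. Of the 10 members 9 were tested, and Pdcd1lg2 did not reach the filter. At 4 h 6 members rose and 1 fell past these thresholds, while 3.68% of all genes tested were up-regulated and 4.39% down-regulated. The median change of the tested members was 1.91 on the log2 scale and that of all genes tested -0.11. At 18 h 2 members were up-regulated and 0 down-regulated, with 2.84% and 1.85% as the shares of all genes. Both comparisons share the 10 naïve retinas.

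**Figure D2:**
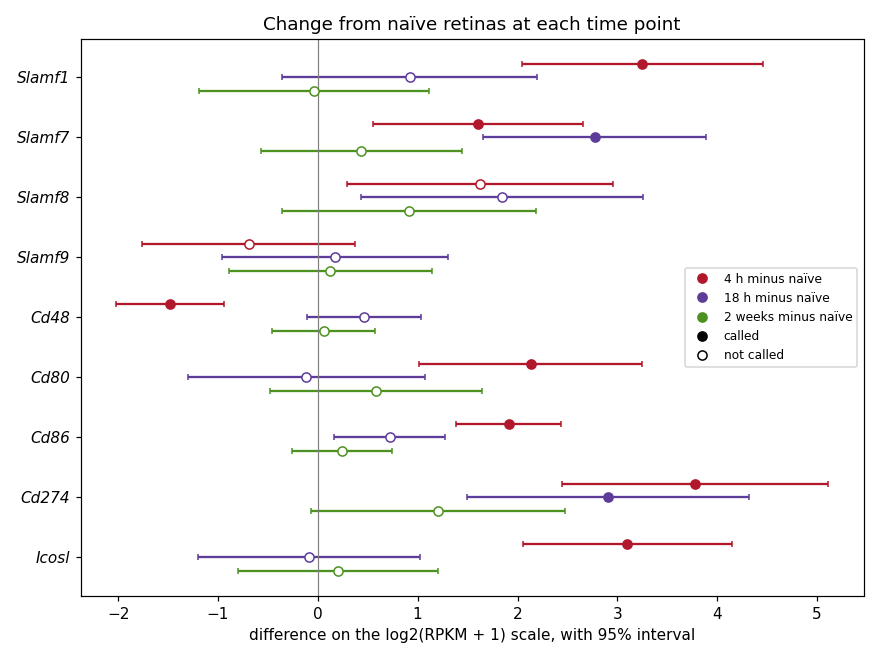
Difference from naïve retinas on the log2(RPKM + 1) scale for the 9 members tested, at each of the 3 time points, with 95% intervals from the limma fit. Filled points passed both thresholds: 7 at 4 h, 2 at 18 h and none at 2 weeks.

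Cd48, the GPI-anchored ligand of CD244 and CD2, was the member that fell at 4 h. Naïve retinas ranged from 199 to 564 RPKM with a median of 392, and 4 h retinas held 70.6, 130, 117, 268, 94.1 and 185 RPKM. Of these only replicate 4 lay inside the naïve range, and the other 5 lay beneath it. The difference was -1.48 ± 0.26 (SE) on the log2 scale (limma, adjusted p = 2.16e-04), and it was -1.60 within experiment 1 and -1.47 within experiment 2. At 18 h Cd48 stood at 504, 461, 503, 412 and 686 RPKM, above every 4 h retina. It differed from 4 h by 1.94 ± 0.31 (adjusted p = 8.24e-05) and from naïve by 0.46 ± 0.28 (adjusted p = 0.42). At 2 weeks the values ran from 288 to 514 RPKM with a median of 356. A gene model on the same strand, Gm37010, overlaps Cd48 and was listed at 6.95 RPKM at most.

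Slamf1 encodes CD150, a self-binding receptor that also takes part in handling bacteria in phagocytes, and the study followed it as a marker of activation on the basis of these samples, so its direction here is no independent evidence. It was between 0 and 1.5 RPKM in naïve retinas with a median of 0.344, and at 4 h the retinas held 68.4, 53.0 and 55.4 RPKM in experiment 1 and 0.776, 8.61 and 0.839 RPKM in experiment 2. All retinas of experiment 1 were above the naïve range, and of experiment 2 only replicate 5 was. Over both experiments the difference was 3.25 ± 0.59 (adjusted p = 2.71e-04), with experiment 2 alone it was 0.90 (adjusted p = 0.28), and without the 7 retinas with many zeros 2.54 (adjusted p = 0.017). At 18 h it was at 0.871, 0.893, 4.15, 2.40 and 1.44 RPKM, a difference from naïve of 0.92 ± 0.63 (adjusted p = 0.48). The fall from 4 h to 18 h was -2.33 ± 0.69 (adjusted p = 0.042). That fall missed the threshold when single retinas were left out, in 8 of 28 such fits (4 h replicates 1, 2, 3 and 5 and 18 h replicates 1, 2, 4 and 5), with adjusted p up to 0.14, and without the 7 retinas that list many common genes at 0 (-2.01, adjusted p = 0.094). It also missed it in experiment 2 by itself (-0.37, adjusted p = 0.85), under a pseudocount of 0.1 (-2.62, adjusted p = 0.21) and with no filter (adjusted p = 0.13). At 2 weeks Slamf1 lay between 0.0547 and 1.42 RPKM.

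Slamf7 encodes CRACC, a self-binding receptor of natural killer (NK) cells and macrophages. It was listed at 0 in 5 of 6 naïve retinas of experiment 1 and ran from 1.55 to 7.39 RPKM in those of experiment 2. At 4 h it stood at 1.70, 17.3, 8.81, 2.06, 6.99 and 2.24 RPKM, overlapping with naïve retinas. Its difference of 1.61 ± 0.52 (adjusted p = 0.047) was lost in 16 of the 28 single-retina omissions (adjusted p up to 0.16, without 4 h replicate 2), namely naïve replicates 1 to 6 and 10, 4 h replicates 2, 3 and 5, 18 h replicates 1, 2 and 5, and 2-week replicates 3, 4 and 5. It was also lost without the 7 retinas with many zeros, where it was 0.65 (adjusted p = 0.43), and in 5 of the 10 alternative settings counting that one. At 18 h the retinas held 7.29, 13.9, 24.2, 8.87 and 11.4 RPKM, and only replicate 1 overlapped with the highest naïve retina. The 18 h difference was 2.77 ± 0.55 (adjusted p = 0.0016) and was 2.25 (adjusted p = 0.010) without those 7 retinas, but in experiment 2 alone it missed the threshold (1.55, adjusted p = 0.43), as it did, by size, under a pseudocount of 10 (0.98, adjusted p = 8.04e-04). Summed markers of T and NK cells (8 genes), at most 0.658 RPKM in naïve retinas and 0.233 at 4 h, were 7.55, 39.8, 13.6, 115 and 17.3 RPKM in the same 18 h retinas. Only Nkg7 of these 8 was tested, at a mean of 30.3 RPKM at 18 h and 0 in naïve retinas. The 18 h means of the other 7 were 4.34 RPKM for Klrb1c (highest 18.4), 2.17 for Cd8a (highest 9.95), 0.667 for Ncr1, 0.572 for Cd3d, 0.389 for Cd3g, 0.134 for Cd3e and 0.0132 for Cd4. The sort kept cells with high reporter signal, and the part of T and NK cells in the Slamf7 level was not tested.

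Slamf8 and Slamf9 encode family members that lack the adaptor-binding tail motifs. Slamf8, which restrains oxidant production in phagocytes, ran from 0 to 9.23 RPKM in naïve retinas with a median of 2.66. At 4 h it stood at 12.1, 7.52, 7.18, 9.94, 6.76 and 5.54 RPKM, a narrow range within or just above the upper naïve values. The difference was 1.63 ± 0.65 (adjusted p = 0.13), and 0.67 (adjusted p = 0.43) without the 7 retinas. At 18 h the retinas held 22.2, 8.87, 34.8, 0 and 13.5 RPKM, and the 0 belongs to replicate 4, one of the 7 with many zeros. The 18 h difference of 1.84 ± 0.69 (adjusted p = 0.13) became 2.69 (adjusted p = 0.0093) without that retina, 2.07 (adjusted p = 0.048) with the experiment as a covariate, and 1.72 (adjusted p = 0.053) without all 7. Slamf9 ran from 47.3 to 180 RPKM in naïve retinas with a median of 154. It stood at 51.0, 9.11 and 52.1 RPKM in the 4 h retinas of experiment 1 and at 169, 174 and 129 in those of experiment 2. At 18 h it was at 220.5, 177, 108, 26.3 and 262 RPKM, from below the naïve range to above it. Its differences were -0.69 ± 0.52 at 4 h (adjusted p = 0.50) and 0.17 ± 0.55 at 18 h (adjusted p = 0.92).

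Cd86 and Cd80 encode the paired ligands of CD28 and CTLA-4. Cd86 was between 53.6 and 109 RPKM in naïve retinas with a median of 77.2, and at 4 h it was at 266, 539, 304, 171, 501 and 163 RPKM. All 6 retinas were above the naïve range, as were all 5 at 18 h (118, 144, 140.2, 119 and 116 RPKM), which were in turn below all 4 h retinas. The 4 h difference was 1.91 ± 0.26 (adjusted p = 2.65e-06), with 2.26 within experiment 1 and 1.54 within experiment 2. At 18 h it was 0.72 ± 0.27 (adjusted p = 0.14), and the step from 4 h to 18 h was -1.19 ± 0.30 (adjusted p = 0.014), or -0.99 (adjusted p = 0.019), under the fold threshold, without the 7 retinas. That step also missed the threshold within experiment 1 alone (adjusted p = 0.11) and experiment 2 alone (adjusted p = 0.28). At 2 weeks Cd86 ran from 59.4 to 117 RPKM with a median of 91.3.

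Cd80 was listed at 0 in 2 naïve retinas of experiment 1 and reached 15.2 RPKM, with a median of 8.09. At 4 h it stood at 38.0, 12.8, 20.4, 18.8, 93.5 and 25.2 RPKM, and only replicate 2 overlapped with naïve retinas. The difference was 2.13 ± 0.55 (adjusted p = 0.0098), and with either experiment alone it missed the threshold (2.47, adjusted p = 0.11, and 1.46, adjusted p = 0.053). Without the 7 retinas it was 1.51 (adjusted p = 0.0053). A fit of all 28 retinas with a mean per group and experiment called the 4 h difference in experiment 1 (adjusted p = 0.028). In experiment 2 that fit did not (adjusted p = 0.56). At 18 h the values were 4.73, 3.44, 4.92, 10.4 and 3.75 RPKM, all below every 4 h retina and inside the naïve range. That range reached 0 through naïve replicates 3 and 4, both among the 7 retinas. The other naïve values were at least 6.085 RPKM. The 18 h difference from naïve was -0.12 ± 0.58 (adjusted p = 0.95), and -1.18 (adjusted p = 0.052) without the 7 retinas. The fall from 4 h was -2.25 ± 0.64 (adjusted p = 0.032), lost in 6 of the 28 single-retina omissions (4 h replicates 1 and 5 and 18 h replicates 1, 2, 3 and 5) with adjusted p up to 0.10, and it was -2.69 (adjusted p = 5.95e-05) without the 7 retinas. It was also lost under a pseudocount of 0.1 (-2.44, adjusted p = 0.25), with no filter (adjusted p = 0.094) and in experiment 1 by itself (-1.81, adjusted p = 0.48). In mean level Cd80 was at 34.8 RPKM at 4 h and Cd86 at 324.

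Cd274 encodes PD-L1, the ligand of PD-1 found on many cell types. Naïve retinas ran from 0 to 5.98 RPKM with a median of 2.55. At 4 h the retinas of experiment 1 held 184, 78.9 and 73.0 RPKM and those of experiment 2 held 6.50, 27.9 and 10.4. All 6 were above the naïve range, replicate 4 narrowly. The difference was 3.78 ± 0.65 (adjusted p = 1.39e-04). Within experiment 2 it was 1.92, and a fit of experiment 2 alone kept the call. A fit of all 28 retinas with a mean per group and experiment did not call the 4 h change in experiment 2 (adjusted p = 0.42). At 18 h Cd274 stood at 17.4, 17.0, 44.7, 14.5 and 13.9 RPKM, again all above the naïve range, with a difference of 2.90 ± 0.69 (adjusted p = 0.0095). That call was lost with a pseudocount of 10 (1.30, adjusted p = 0.058) and with experiment 2 alone (2.07, adjusted p = 0.15), where 18 h has 1 retina. The 4 h and 18 h retinas overlapped (-0.87 ± 0.77, adjusted p = 0.65). At 2 weeks 6 retinas lay between 0.363 and 6.82 RPKM, and replicate 4 held 61.0 RPKM. The 2-week difference of 1.21 ± 0.62 (unadjusted p = 0.062, adjusted p = 1) was 0.66 without that retina.

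Pdcd1lg2, which encodes PD-L2, the other PD-1 ligand, stayed near the limit of detection. It was listed at 0 in all 6 retinas at 4 h, at the same time as its neighbour Cd274 was at its highest. At 18 h the values were 0, 0.324, 1.32, 0 and 1.18 RPKM, and at 2 weeks the highest was 0.938. With 1 alignment worth up to 0.0770 RPKM in this gene, most of these values rest on few reads, and no test was made.

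Icosl was between 0.924 and 21.4 RPKM in naïve retinas with a median of 4.79, and naïve replicate 1 alone exceeded 6.87. At 4 h the retinas held 97.9, 20.8, 25.9, 51.2, 59.4 and 52.8 RPKM, of which replicate 2 lay just under that highest naïve retina. The difference was 3.10 ± 0.51 (adjusted p = 7.19e-05), and it was 3.10 within experiment 1 and 2.97 within experiment 2. By 18 h the level was 8.48, 2.90, 7.09, 0.420 and 6.92 RPKM, below all 4 h retinas. The fall was -3.19 ± 0.60 (adjusted p = 7.44e-04; experiment 1 alone -3.09, adjusted p = 0.12), and the difference from naïve was -0.09 ± 0.54 (adjusted p = 0.96, 95% interval -1.20 to 1.02).

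Between 4 h and 18 h Slamf1, Cd80, Cd86 and Icosl fell and Cd48 rose, which makes 4 members down-regulated and 1 up-regulated, with 2.51% and 2.92% of all genes tested. The step missed the threshold for Slamf7 (means of 6.52 and 13.1 RPKM, 1.17 ± 0.61, adjusted p = 0.35), as it did for Slamf8 (8.16 and 15.9 RPKM, adjusted p = 0.94) and Slamf9 (97.3 and 159 RPKM, adjusted p = 0.55). At 4 h the ranges of Cd86 and Cd274 did not overlap with naïve retinas, and the same 2 members did not overlap at 18 h. Over all genes tested, 3.07% did not overlap with naïve retinas at 4 h and 3.35% at 18 h.

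At 2 weeks no member was up- or down-regulated, and 0.0076% of all genes were. Of the 9 members 0 had an unadjusted p under 0.05 in the limma fit, compared with 378 of 13164 genes. The estimates ran from -0.04 for Slamf1 to 1.21 for Cd274. The 95% intervals did not bound all differences tightly, and ran from -0.46 to 0.57 for Cd48 and from -0.06 to 2.48 for Cd274.

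**Figure D3:**
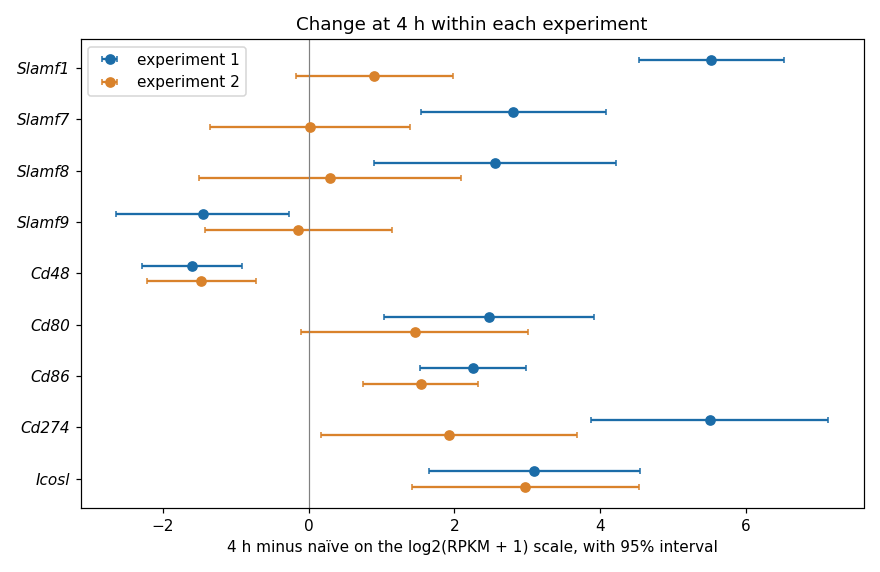
Difference between 4 h and naïve retinas on the log2(RPKM + 1) scale within experiment 1 (blue, 3 against 6 retinas) and experiment 2 (orange, 3 against 4), with 95% intervals. The estimates of Cd48, Cd86 and Icosl differed between experiments by at most 0.72, and that of Slamf1 stood at 5.52 in experiment 1 and 0.90 in experiment 2.

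The 4 h change was compared between the experiments with an interaction term. Only Slamf1 of the 9 members passed (adjusted p = 0.0042), with a change in experiment 2 that differed by -4.62 ± 0.71 from that in experiment 1, and 13 genes in all, 0.0988%, passed. This call was lost without 4 h replicate 6 (-4.23, adjusted p = 0.051) and without the 7 retinas with many zeros (-4.05, adjusted p = 0.18). Cd274 changed by 5.50 in experiment 1 and 1.92 in experiment 2, a difference of -3.58 ± 1.16 (adjusted p = 0.50), and Slamf7 by 2.81 and 0.02, a difference of -2.78 ± 0.91 (adjusted p = 0.52). For Cd48, Cd86 and Icosl the differences were 0.13 ± 0.50, -0.72 ± 0.52 and -0.13 ± 1.04, each with an interval across 0. The 4 h retinas of the 2 experiments did not overlap for Slamf1, Slamf9 and Cd274, compared with 17.5% of all genes tested, a comparison added after the values were seen.

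Naïve retinas were compared between the experiments likewise, after the values were seen. No member passed both thresholds, and 1.78% of all genes did. Naïve ranges did not overlap for Slamf7, Slamf9 and Cd80, all higher in experiment 2, compared with 6.5% of all genes. Slamf7 had the smallest adjusted p (1.91 ± 0.57, adjusted p = 0.067). The 4 naïve retinas with many zeros are all of experiment 1, where naïve retinas had a median of 8350 genes at 1 RPKM or more, and 11320 in experiment 2.

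The make-up of the family's signal shifted with these changes. The summed RPKM of the 10 members stayed in one order of size, with medians of 615 RPKM in the naïve group, 743 for 4 h, 872 for 18 h and 653 for 2 weeks. Cd48 took a median of 64.9% of that sum in naïve retinas (43.9% to 77.6%) and 16.3% at 4 h (8.94% to 38.5%). Its later medians were 57.7% for 18 h and 59.1% for 2 weeks. Cd86 took 12.3% in naïve retinas (9.61% to 17.9%) and 39.7% at 4 h (24.5% to 62.1%), and 16.1% at 18 h. The ranges of both shares at 4 h lay outside those of naïve retinas.

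**Figure D4:**
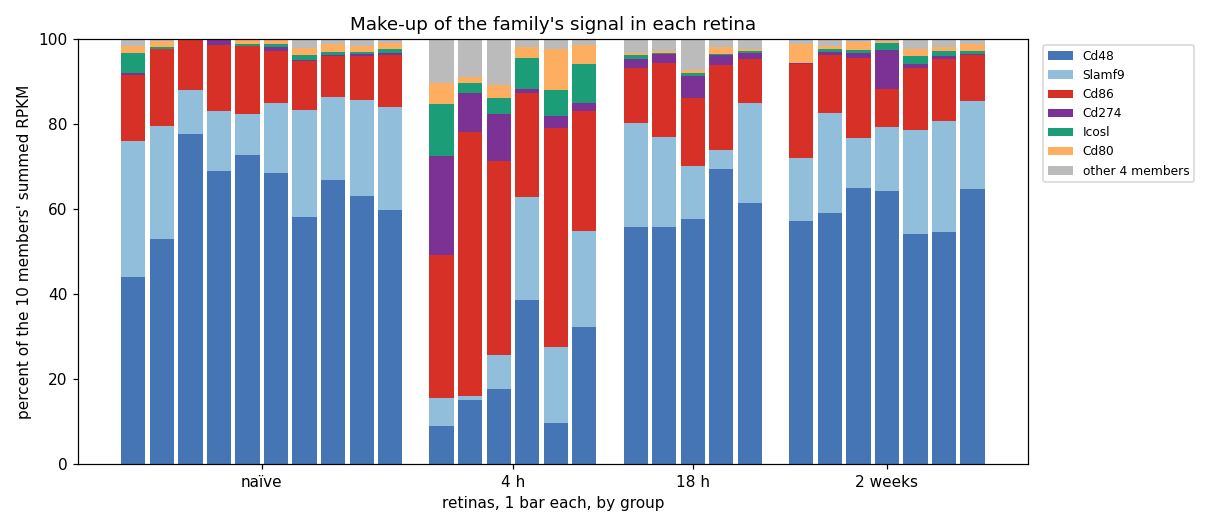
Percent of the summed RPKM of the 10 members held by each gene, 1 bar per retina, ordered by group and replicate. The grey part holds Slamf1, Slamf7, Slamf8 and Pdcd1lg2 together. Cd48 leads in naïve, 18 h and 2-week retinas and has a median share of 16.3% at 4 h, where Cd86 has 39.7%. Cd48 still leads in 4 h replicates 4 (38.5%, with 24.5% for Cd86) and 6 (32.2%, with 28.4%), both of experiment 2.

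Other genes of these pathways were taken from 6 lists with 36 genes in the table, of which 22 were tested. The 4 h comparison called 6 higher and 5 lower, the 18 h comparison 1 in each direction, and the 2-week comparison 0, to be read beside the shares of all genes given above (at 2 weeks the limma fit called 1 gene in all). Among 4 other SLAM receptors, Cd84, a self-binding receptor, fell from 61.3 ± 8.30 RPKM to 19.4 ± 13.7 at 4 h (-1.86 ± 0.29, adjusted p = 3.11e-05). Slamf6 fell too (-1.69 ± 0.37, adjusted p = 0.0024). Cd244, the receptor of CD48, rose from 1.94 ± 1.75 RPKM to 13.7 ± 10.7 at 4 h (2.05 ± 0.54, adjusted p = 0.011). At 18 h it was at 9.59 ± 5.52 RPKM (1.96 ± 0.57, adjusted p = 0.039). The summed T and NK cell markers described above were highest at 18 h and at most 0.233 RPKM at 4 h. The part of those cells in the Cd244 level was not tested. Ly9 did not pass (-0.14 ± 0.64).

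Of 6 tested adaptors and effectors of SLAM signalling, Inpp5d, which encodes the phosphatase SHIP-1, fell at 4 h (-1.60 ± 0.44, adjusted p = 0.017), and the other 5 were not called. Sh2d1a, the gene of SAP itself, averaged 5.88 RPKM in naïve retinas and 5.06 at 4 h. Of 2 tested B7-type genes, Vsir, which encodes the checkpoint ligand VISTA, fell from 53.4 ± 38.3 RPKM to 11.9 ± 7.36 at 4 h (-2.16 ± 0.39, adjusted p = 2.79e-04) and 13.6 ± 3.20 at 18 h (-1.74 ± 0.42, adjusted p = 0.0098). Cd276, the gene of B7-H3, rose at 4 h (1.24 ± 0.39, adjusted p = 0.041).

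In the TNF superfamily 4 of 8 genes were tested and all passed at 4 h. Tnfsf9, which encodes the ligand of 4-1BB, went from 3.27 ± 3.19 RPKM in naïve retinas to 5095 ± 2446 at 4 h (10.55 ± 0.70, adjusted p = 1.16e-12). That level exceeds every member of the family at any time. Cd40, a receptor for T cell help, rose from 0.268 ± 0.554 to 43.5 ± 35.7 RPKM (4.64 ± 0.44, adjusted p = 4.18e-09), and its rise differed between the experiments (-3.30 ± 0.63, adjusted p = 0.027). Cd70 rose (1.63 ± 0.29, adjusted p = 1.65e-04) and Tnfsf8, which encodes the CD30 ligand, fell (-1.67 ± 0.43, adjusted p = 0.0092). Of the remaining ligand and receptor genes, Pvr, which encodes a ligand of TIGIT and CD226, rose (1.51 ± 0.28, adjusted p = 3.67e-04), while Nectin2, Lgals9 and Havcr2 did not pass.

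Of the receptors that the member ligands engage, Cd2, Cd28, Ctla4 and Icos did not reach the filter, with means of at most 0.933 RPKM in any group. Pdcd1, which encodes PD-1, averaged 8.38 RPKM in naïve retinas (0 to 29.6), and Rgmb, which encodes a receptor of PD-L2, averaged 8.90. Both were tested and did not pass at any time. Of the marker lists of other cells, T and NK markers were described above with Slamf7. Summed dendritic cell markers (7 genes) lay between 0.812 and 8.40 RPKM in naïve retinas and between 19.9 and 188 at 4 h, the time at which Cd80, Cd86 and Cd274 were highest. That sum was mostly Ccr7, the only one tested (62.8 RPKM at 4 h, 0 in naïve retinas), while Flt3 averaged 0.0767 RPKM, Clec9a 0 and Xcr1 0.420 at 4 h, and Zbtb46 2.57. Neutrophil markers other than Csf3r averaged at most 0.0473 RPKM at 4 h. At 18 h S100a8 averaged 2.59 RPKM (highest 9.24), S100a9 1.74 and Camp 0.819, each listed at 0 in all naïve retinas. Summed monocyte markers lay between 0.13 and 28.5 RPKM in naïve retinas, 0.236 and 18.1 at 4 h, 0.228 and 49.9 at 18 h, and 1.98 and 28.4 in the 2-week group. Within that list the means of naïve and 18 h retinas were 0.120 and 4.46 RPKM for Fn1, 0.829 and 8.79 for Plac8, and 10.4 and 1.41 for F13a1, and the genes of it that were tested, Plac8 and F13a1, were not called. The part of these cells in the members' levels was not tested. Among B cell markers all but Cd79b stayed under 1 RPKM in every retina. Rod photoreceptor markers were present in naïve (205 to 3840 RPKM) and 4 h retinas (320 to 3114) alike, and their part in the values was not tested.

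For each tested member the 2 genes with the most similar pattern were taken by Pearson's r over the 28 retinas on the log2 scale, as a description of retinas that share libraries, groups and experiments. Mcoln2 (r = 0.948) and Il4i1 (0.945) were nearest to Slamf1, and Ppp1r15a (0.940) and Swap70 (0.930) to Icosl. Ccnd2 (0.929) and Sdc4 (0.917) were nearest to Cd86, Gbp3 (0.893) and Cd44 (0.825) to Cd274, and Zfr (0.761) and Gramd1a (0.760) to Cd80. Hmox2 (0.894) and Gpx1 (0.888) were nearest to Cd48, Ctsa (0.848) and Brk1 (0.828) to Slamf9, Fpr2 (0.856) and Ifi206 (0.831) to Slamf7, and Eif4a1 (0.866) and Gm20425 (0.860) to Slamf8. The mean level of Fpr2, like that of Slamf7, was highest at 18 h (13.4 RPKM, with 0.362 in naïve retinas and 5.89 at 4 h). Mcoln2 and Il4i1 were highest at 4 h (4.60 and 11.9 RPKM, with 0.0812 and 0.0650 in naïve retinas).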

How the data were processed

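The authors converted base calls with bcl2fastq 2.20 and aligned the reads to mm10 with STAR 2.5.3a, then quantified Ensembl transcripts in Partek by expectation-maximisation, which can divide a read between genes, and deposited 1 RPKM value per gene and retina. Whole reads cannot be recovered from these values, so no count test was run. The deposited tables of 4 h and 18 h DEGs hold the authors' own comparisons and were not used. Members were matched by symbol. RPKM values were transformed to log2(RPKM + 1), and 13164 of 40021 genes that reached 1 RPKM in 5 or more retinas were tested with limma 3.58.1 (R 4.3.3, empirical Bayes with a mean-variance trend, all 4 groups in 1 fit, Benjamini-Hochberg adjustment). Experiments were compared with an interaction term at an adjusted p of at most 0.05. Fold changes on this scale understate the change of genes with low values. Same-numbered retinas of different groups deviated from their group means with a mean r of 0.048 over 34 pairs, 15 of them over 0.1. Pairs with other numbers had a mean r of 0.010 over 253 pairs, 93 of them over 0.1, and numbers were not taken to pair samples. The mean r was 0.077 for pairs within an experiment and -0.053 for pairs across experiments. The main fit held no term for the experiment.

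Named genes were all 10 members, up to 4 genes per pathway list that passed at 4 h or 18 h, and for each tested member the 2 genes of highest Pearson's r. The few genes named beyond this rule, such as markers, were picked with their values in view. Members and lists were chosen with earlier results of these data known. Alternatives were pseudocounts of 0.1 and 10, no filter or one at 5 RPKM, the experiment as covariate, a replicate block, each experiment alone, equal summed RPKM and each retina left out. Leaving out the 7 retinas with 10 or more of 2657 common genes (at least 10 RPKM in at least 20 retinas) listed at 0 was added after seeing the data. Coordinates are from GENCODE M21 (GRCm38) and promoters from RefSeq (GRCm38.p6). Figures were drawn with matplotlib 3.10.9.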

Additional observations from a re-analysis of the deposited data

Results flagged for a closer look

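Cd274 at 18 h had 1 retina far from the others of its group on the log2 scale. Replicate 3 held 44.73 RPKM, and the other 4 retinas lay between 13.9 and 17.4. It was the only such retina in 36 member-by-group sets tested, and chance alone gives such a gap in about 1 in 20 sets. Without it the 18 h difference of Cd274 kept its call, as it did in every fit that left out 1 retina (2.61 to 3.05). The same retina had the highest Slamf7, Slamf8 and Slamf1 values of the 18 h group, at 24.2, 34.8 and 4.15 RPKM.

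The 4 h change of Slamf1 differed between the experiments by -4.62 on the log2 scale, tested with an interaction term (limma, adjusted p = 0.0042). Across alternatives the estimate kept its sign, from -6.33 to -2.46, with adjusted p up to 0.31. The experiment is a label of the study, and what differed between the experiments was not tested.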

How the results depend on the processing

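Over all member results, the alternatives left 356 on the same side of the thresholds with the same sign, 26 lost a call, 2 gained one and 25 turned sign; the fits that left out 1 retina gave 1203, 31, 1 and 25. Each result that turned sign had not passed the thresholds. The cause of these changes was not tested. Slamf1 has no value under a filter at 5 RPKM, since it no longer enters the test.

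With experiment 2 alone, 4 members in place of 7 passed at 4 h, 0 in place of 2 at 18 h and 3 in place of 5 between 4 h and 18 h, with a lone 18 h retina assumed to vary like the other groups. With experiment 1 alone 2 passed between 4 h and 18 h. A pseudocount of 10 left 0 at 18 h. A pseudocount of 0.1 left 3 between 4 h and 18 h and 0 for the difference between experiments, and no filter left 3 between 4 h and 18 h. The filter at 5 RPKM left 0 for the difference between experiments. Without the 7 retinas 3 passed between 4 h and 18 h and 0 differed between experiments. Leaving out single retinas gave 3 to 5 between 4 h and 18 h (3 without 4 h replicates 1 or 5 or 18 h replicates 1, 2 or 5) and 0 to 1 between experiments.

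The replicate block left 1 member at 18 h (Slamf7; Cd274 had an adjusted p of 0.053) and raised Slamf8 at 4 h past the threshold (2.24, adjusted p = 0.043). The numbers were not taken to pair the samples, so this is given as a value.

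Turned signs at 18 h were those of Slamf9 (equal summed RPKM, -0.16), Cd80 (pseudocount 0.1, 0.41; experiment covariate, 0.043; replicate block, 0.54; experiment 1, 0.65) and Icosl (covariate, 0.055; replicate block, 0.20; experiment 1, 0.0072; experiment 2, 0.17). At 2 weeks they were those of Slamf1 (replicate block, 0.088; experiment 1, 0.061), with experiment 2 alone Slamf7 (-0.77), Slamf9 (-0.093), Cd48 (-0.25) and Cd80 (-0.34), and without the 7 retinas Slamf8 (-0.13), Slamf9 (-0.34), Cd80 (-0.46) and Icosl (-0.029). Between 4 h and 18 h they were Slamf8 (pseudocount 0.1, -0.36; experiment 1, -0.025) and Cd274 (experiment 2, 0.14). For the difference between experiments they were Cd48 (-0.014) and Icosl (0.69) without the 7 retinas and Icosl with a pseudocount of 10 (0.25).

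Leaving out single retinas gave ranges across 0 for Slamf9 (-0.10 to 0.72), Cd80 (-0.42 to 0.030) and Icosl (-0.32 to 0.37) at 18 h, for Slamf1 (-0.17 to 0.050), Slamf9 (-0.01 to 0.30) and Cd48 (-0.039 to 0.13) at 2 weeks, for Slamf8 between 4 h and 18 h (-0.23 to 1.06), and for Cd48 (-0.21 to 0.54) and Icosl (-0.59 to 0.55) between experiments. Equal summed RPKM shifted the median over all genes tested, at 4 h from -0.11 to -0.28 and at 18 h from -0.08 to -0.26. The RPKM of low members such as Slamf1 and Pdcd1lg2 in naïve retinas rests on few alignments, which limits any fold change against them.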
